A study of Mus musculus with 15 samples.

Results

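The 10 genes described here encode receptors and identity proteins of the endothelium, the cell layer that lines blood vessels: Kdr, Flt1, Tie1, Tek, Ramp2, Cdh5, Pecam1, Eng, Epas1 and Tmem100. They were followed across 15 arrays of whole mouse heart, 1 array per heart, and are 10 of the 12393 genes that the arrays measured with probe sets paired with 1 gene. Every probe set paired with exactly 1 of the 10 symbols was taken, 14 in all: 3 for Flt1, 2 each for Cdh5 and Eng, and 1 for each of the other genes. The genes were chosen by their measured differences between septic and sham hearts on these same arrays, with attention to opposite directions in the 2 genotypes, so those differences are given as descriptions, with no test.

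Septic mice had undergone caecal ligation and perforation (CLP): the caecum was tied, pierced and returned, and gut bacteria spread from it into the abdomen. In sham mice the caecum was exposed and put back. The wild-type groups were C57/BL6 mice after CLP labelled Max Dep, C57/BL6 mice after CLP labelled Min Dep, and C57/BL6 mice after a sham operation. The other groups were mice of the congenic strain B6.129P2-Nos2tm1Lau/J, which lack inducible nitric oxide synthase (iNOS, gene Nos2), after CLP and after a sham operation. Each group had 3 hearts, taken 48 h after surgery, and all mice had isoflurane, buprenorphine and saline, then ketamine and xylazine and a carotid catheter before the heart was removed. The series concerns myocardial depression in sepsis, and the labels do not say what measure ranked hearts as Max Dep or Min Dep. The age and sex of the mice are not given in the labels.

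Kdr (VEGF receptor 2) and Flt1 (VEGF receptor 1) are receptor tyrosine kinases for vascular endothelial growth factors. Tek (Tie2) is the receptor tyrosine kinase for angiopoietins, and Tie1 is its relative that pairs with it. Kdr carries most of the growth and permeability signal of VEGF, Flt1 binds VEGF tightly with weak signalling of its own, and signalling through Tek keeps the vessel wall quiet and its junctions closed. Heart muscle is densely supplied with capillaries, so endothelial RNA makes up part of any whole-heart extract.

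The sequences before an annotated start site of each of the 4 receptor tyrosine kinases are shown because these 4 genes had a positive CLP difference in wild-type hearts and a negative one in knockout hearts. They are the 250 bases before each start in the RefSeq promoter table (build GRCm38.p6), written 5′ to 3′ on the gene's strand. That start is not always the outermost one: the gene bounds in RefSeq run to 75979072 for Kdr and 147726438 for Flt1, beyond their windows, and begin at 94739086 for Tek, inside its window. Of the 10 genes, 5 were in that table (these 4 and Eng). Capitals mark the core hypoxia response motif, ACGTG or GCGTG, through which Epas1 and its relatives bind DNA, found on either strand.
Kdr (chr5:75978456-75978705, minus strand): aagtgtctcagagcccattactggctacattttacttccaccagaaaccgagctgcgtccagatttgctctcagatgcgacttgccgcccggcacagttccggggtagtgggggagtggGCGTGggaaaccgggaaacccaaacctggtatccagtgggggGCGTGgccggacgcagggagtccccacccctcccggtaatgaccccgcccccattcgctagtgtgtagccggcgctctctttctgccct
Flt1 (chr5:147726012-147726261, minus strand): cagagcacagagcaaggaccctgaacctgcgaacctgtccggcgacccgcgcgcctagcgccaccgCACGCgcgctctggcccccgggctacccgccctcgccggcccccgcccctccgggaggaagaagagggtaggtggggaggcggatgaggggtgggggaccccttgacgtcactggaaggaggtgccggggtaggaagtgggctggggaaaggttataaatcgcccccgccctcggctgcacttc
Tie1 (chr4:118489850-118490099, minus strand): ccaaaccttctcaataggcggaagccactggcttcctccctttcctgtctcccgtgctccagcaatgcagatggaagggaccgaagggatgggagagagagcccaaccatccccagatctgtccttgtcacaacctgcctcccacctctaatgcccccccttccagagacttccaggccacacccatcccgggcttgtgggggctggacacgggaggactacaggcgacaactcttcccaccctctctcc
Tek (chr4:94739039-94739288, plus strand): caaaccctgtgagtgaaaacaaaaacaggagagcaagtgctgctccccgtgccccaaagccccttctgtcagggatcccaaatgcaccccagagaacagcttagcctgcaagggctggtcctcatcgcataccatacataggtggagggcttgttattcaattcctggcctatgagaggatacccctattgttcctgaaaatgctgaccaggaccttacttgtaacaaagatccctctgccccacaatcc
The Kdr window held GCGTG 2 times, at -131 to -127 and at -89 to -85 counted from the start, and the Flt1 window held 1 match on the opposite strand, at -184 to -180. The Tie1 and Tek windows held none. At least 1 match was present in 38.6% of the 32851 promoter windows of this length in the table, with a mean of 0.663 matches per window. The motifs CAGGAAG and CCGGAAG, read by ETS factors, which act widely in endothelial genes, were searched on both strands too. They were in none of the 4 windows and in 17.0% of all windows. Only these exact strings were searched, so other forms of an ETS site were not looked for. Tie1 and Tek lie on the same chromosome, 4, and Kdr and Flt1 on chromosome 5.

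The 9 wild-type arrays and the 6 knockout arrays were deposited as separate tables. Wild-type values are standardised units, scaled so that every array has the same spread and, but for a linear step per array, every probe set too, so they give directions and separation of groups but no fold change. The fixed spread also bounds the size of a wild-type difference, so these sizes do not rank genes by strength of change. Knockout values behave as log differences centred per probe set, with the base not given. The array model differs between the tables as well, so genotype cannot be told apart from table and array model. No level was set against a level in the other genotype, nor was one gene's level set against another's, and since the values are centred the endothelial content of the hearts could not be checked from absolute levels. Precision was limited by the small number of arrays.

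Nos2 could not check the knockout labels, since each table holds 1 genotype in centred values. Some arrays stood apart. In knockout mice, the CLP replicate 1 column lay between the other CLP columns in 76.0% of probe sets, against 32.8% to 34.4% for each sham column, and was left out of the differences, which therefore compare 2 CLP arrays with 3 sham arrays. Its values are still given. Knockout sham replicate 1, which was kept, and CLP replicate 1 had 0 probe sets at exactly 0. Each other knockout array had 2992 to 3122 of them, and the cause was not tested. Wild-type sham replicate 1 was high for Xist (2.64, against -0.53 to -0.17 on the other wild-type arrays) and low for the Y-linked gene Eif2s3y (-2.48, against -0.68 to 1.09). Knockout sham replicate 2 had the reverse pattern, with Eif2s3y at 5.76 against -0.27 to 0.10 on the other knockout arrays, and Xist at -6.36. Knockout CLP replicate 1 was also low for Xist, at -3.23, outside the range of the other CLP columns (0.68 and 0.20). Xist was at 0.69 and 0.38 on knockout sham replicates 1 and 3. The sham array that stood apart was thus high for Xist in the wild-type table and low for it in the knockout table. The labels give no sex, so genotype cannot be told apart from a difference in sex between the tables either. The differences of the 10 genes, their counts and the lists are also given without wild-type sham replicate 1 or knockout sham replicate 2.

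Kdr was higher in every wild-type CLP heart than in every wild-type sham heart. Its values were -0.17, -0.53 and 1.13 in Max Dep hearts and 0.89, 1.09 and 0.73 in Min Dep hearts, against -0.99, -1.46 and -0.78 in sham hearts. The difference between CLP and sham was 1.60 ± 0.39 standardised units (SE, 6 CLP and 3 sham arrays). In knockout hearts the order was the opposite: Kdr was at -2.23, -1.68 and -3.48 after CLP, against 1.65, 0.00 and 1.11 after sham, and the groups did not overlap. The knockout difference was -3.50 ± 0.92 log units. Without wild-type sham replicate 1 the wild-type difference was 1.64, and without knockout sham replicate 2 the knockout difference was -3.96. In bulk tissue such as this, fewer endothelial cells and less RNA per endothelial cell cannot be told apart.

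Flt1 leaned the same way in wild-type hearts, with overlap between the groups. It was at 0.46, 1.06 and 0.58 in Max Dep hearts and 0.43, -0.37 and -0.03 in Min Dep hearts, against -1.33, -0.96 and 0.26 in sham hearts, where sham replicate 3 was above 2 of the Min Dep hearts. The difference was 1.03 ± 0.40 standardised units, and 0.71 without sham replicate 1. In knockout hearts Flt1 was at -1.38, 0.32 and -3.04 after CLP, against 0.11, -0.67 and 0.62 after sham. The knockout difference of -1.38 ± 1.35 log units turned on 1 array: it was 0.30 without CLP replicate 3 and -3.06 without CLP replicate 2. Without sham replicate 2 it was -1.73.

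The 3 Flt1 probe sets did not behave alike. Probe set 1419300_at was higher in all 6 wild-type CLP hearts than in the 3 sham hearts, with a difference of 1.93 ± 0.33 standardised units, and 1451756_at had a difference of 1.43 ± 0.48. Probe set 1454037_a_at had a difference of -0.26 ± 0.87, with sham replicate 3 at 2.42 and sham replicate 2 at -1.59. In knockout hearts 1454037_a_at was at -3.61 ± 1.17 log units, with every CLP heart below the sham hearts, while 1451756_at was at -0.91 ± 2.23 and 1419300_at at 0.37 ± 1.25. The probe sets that carried the wild-type difference were therefore not the one that was lowest in knockout CLP hearts.

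Tie1 in wild-type hearts depended on a single sham array. It was at 0.16, 0.90 and 0.86 in Max Dep hearts and -0.29, -0.66 and 1.31 in Min Dep hearts, against -2.53, 0.33 and 0.24 in sham hearts. The difference was 1.03 ± 0.81 standardised units and was 0.09 without sham replicate 1, the array with the high Xist value. In knockout hearts the groups were well apart, with Tie1 at -0.84, -0.58 and -1.75 after CLP, against 2.03, 2.95 and 2.34 after sham. The difference was -3.60 ± 0.56 log units, and -3.35 without sham replicate 2.

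Tek was higher in all 6 wild-type CLP hearts than in the sham hearts. Its values were 0.25, 1.37 and 1.90 in Max Dep hearts and -0.29, -0.15 and 0.60 in Min Dep hearts, against -1.56, -0.86 and -0.95 in sham hearts, a difference of 1.74 ± 0.42 standardised units. Without sham replicate 1 it was 1.52. In knockout hearts Tek was at -0.56, 0.00 and -1.61 after CLP, against 1.99, 2.74 and -0.01 after sham. Sham replicate 3 was as low as CLP replicate 2, so the groups overlapped, and the difference was -2.38 ± 1.22 log units. It was -1.57 without CLP replicate 3 and -1.80 without sham replicate 2.

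**Figure D1:**
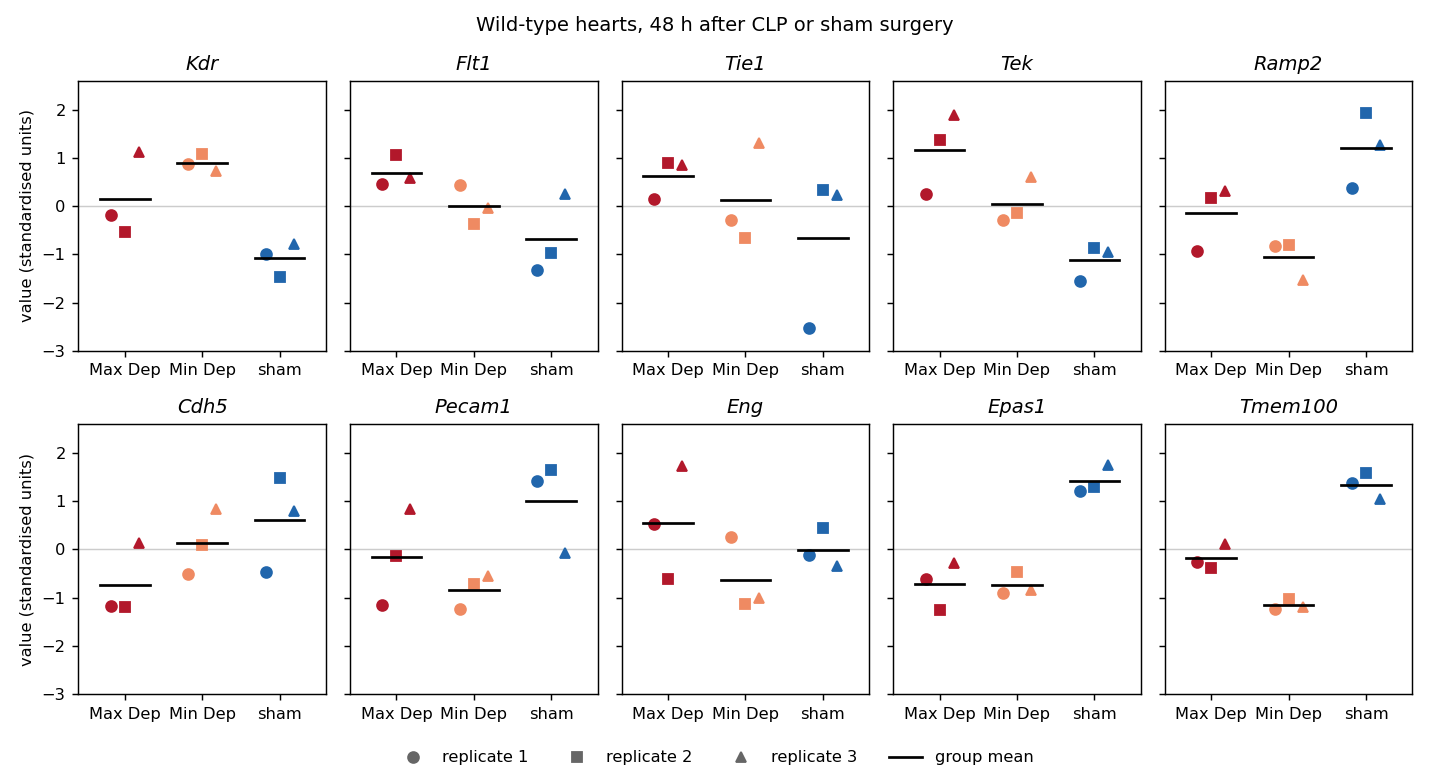
Values of the 10 genes on the 9 wild-type arrays, in standardised units, 1 panel per gene, with 1 point per heart for Max Dep, Min Dep and sham and a bar for each group's mean. Kdr and Tek lie above sham in every CLP heart, and Ramp2, Epas1 and Tmem100 lie below sham in every CLP heart.

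Ramp2 and Eng are accessory receptors. Ramp2 joins the calcitonin receptor-like receptor to form the receptor for adrenomedullin, a vasodilator peptide that guards the endothelial barrier. It was lower after CLP in both genotypes. In wild-type hearts it was at -0.92, 0.18 and 0.33 in Max Dep hearts and -0.83, -0.81 and -1.53 in Min Dep hearts, against 0.38, 1.95 and 1.28 in sham hearts. The highest CLP heart, at 0.33, was just under the lowest sham heart, at 0.38, and the difference was -1.80 ± 0.46 standardised units, or -2.21 without sham replicate 1. In knockout hearts Ramp2 was at -4.20, -3.52 and -5.35 after CLP, against 0.65, 0.26 and 0.27 after sham. Its knockout difference, -4.83 ± 0.70 log units, was the most negative of the 10 genes, and the sham arrays lay close together (SD 0.22, n = 3). It was -4.89 without sham replicate 2.

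Eng (endoglin) is a co-receptor for BMP9 and BMP10 that works with the kinase ALK1. In wild-type hearts it was at 0.53, -0.62 and 1.74 in Max Dep hearts and 0.27, -1.13 and -1.01 in Min Dep hearts, against -0.12, 0.45 and -0.35 in sham hearts. The sham values lay inside the CLP range, and the difference was -0.03 ± 0.60 standardised units, or -0.09 without sham replicate 1. Its 2 probe sets pointed in opposite directions in wild type, 1417271_a_at at -0.94 ± 0.62 and 1432176_a_at at 0.87 ± 0.76. In knockout hearts Eng was at -0.70, -0.49 and -1.39 after CLP, against 2.16, 2.31 and 0.00 after sham, a difference of -2.43 ± 1.02 log units, with both probe sets negative (-1.59 ± 0.68 and -3.28 ± 1.49). It was -2.02 without sham replicate 2.

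Cdh5 (VE-cadherin) and Pecam1 (CD31) hold endothelial cells to each other. Cdh5 was at -1.17, -1.20 and 0.14 in Max Dep hearts and -0.51, 0.09 and 0.85 in Min Dep hearts, against -0.47, 1.49 and 0.80 in wild-type sham hearts, and the groups overlapped. The difference was -0.91 ± 0.58 standardised units, -1.45 without sham replicate 1 and -0.47 without sham replicate 2. Its probe set 1422047_at was lower in every wild-type CLP heart than in every sham heart (-1.73 ± 0.43), while 1433956_at was at -0.09 ± 0.88, with sham replicate 1 at -1.89 against 1.66 and 0.45 for the other sham hearts. In knockout hearts Cdh5 was at -1.44, -1.41 and -2.01 after CLP, against 2.30, 3.15 and 0.52 after sham, with no overlap. Both probe sets were lower after CLP there, and the difference of their mean was -3.70 ± 1.02 log units, or -3.12 without sham replicate 2.

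Pecam1 was at -1.16, -0.13 and 0.85 in Max Dep hearts and -1.23, -0.72 and -0.56 in Min Dep hearts, against 1.43, 1.66 and -0.07 in wild-type sham hearts. Every Min Dep heart was below the sham hearts, and Max Dep replicate 3 was above sham replicate 3. The difference over all CLP hearts was -1.50 ± 0.58 standardised units, and -1.29 without sham replicate 1. In knockout hearts Pecam1 was at -1.93, -0.72 and -3.76 after CLP, against 1.04, 2.44 and 1.15 after sham, a difference of -3.78 ± 1.27 log units with no overlap. It was -5.30 without CLP replicate 2, -2.27 without CLP replicate 3 and -3.33 without sham replicate 2.

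**Figure D2:**
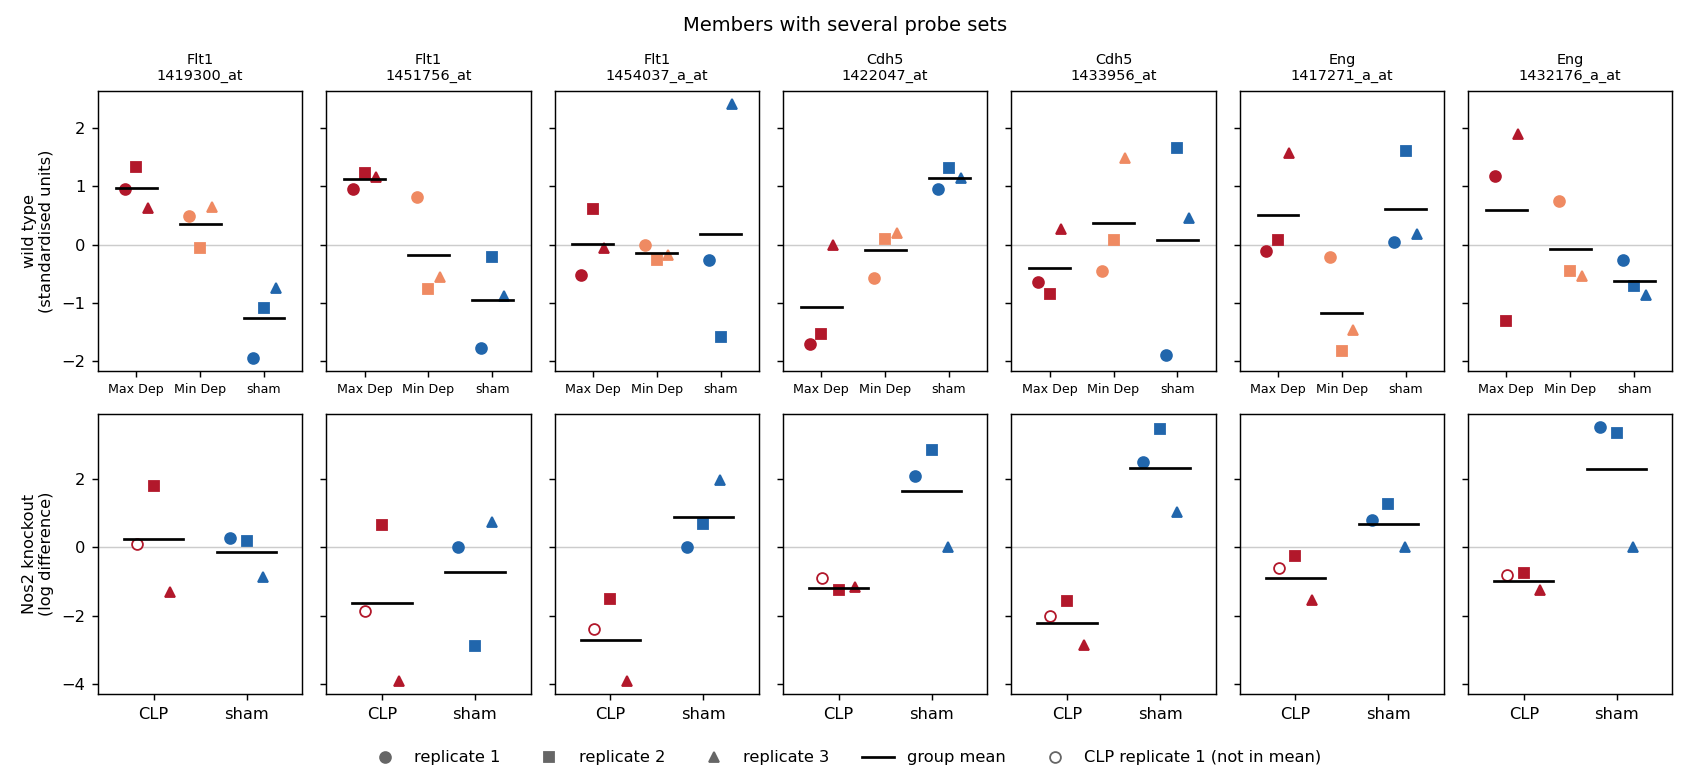
Values of each probe set of Flt1 (3), Cdh5 (2) and Eng (2) on every array, in the units of each table, with 1 point per heart. Flt1 probe set 1454037_a_at and Cdh5 probe set 1433956_at show no separation in wild-type hearts, where the other probe set or sets of the same gene are further apart.

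Epas1 encodes HIF-2α, an oxygen-regulated transcription factor that is abundant in endothelium. It was lower in every wild-type CLP heart, at -0.61, -1.25 and -0.28 in Max Dep hearts and -0.90, -0.46 and -0.84 in Min Dep hearts, against 1.21, 1.29 and 1.75 in sham hearts. The groups did not overlap, and the difference was -2.14 ± 0.25 standardised units, and -2.24 without sham replicate 1. In knockout hearts Epas1 was at -0.01, 0.37 and -0.54 after CLP, against -0.96, 0.73 and -0.00 after sham. These groups lay on top of each other, and the difference was -0.01 ± 0.72 log units. Without sham replicate 2 it was 0.40.

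Tmem100 encodes a small membrane protein of endothelium whose expression depends on BMP signalling through ALK1. It was at -0.26, -0.38 and 0.11 in Max Dep hearts and -1.23, -1.03 and -1.20 in Min Dep hearts, against 1.39, 1.59 and 1.04 in wild-type sham hearts. The 3 groups did not overlap with each other, and the difference between CLP and sham was -2.00 ± 0.16 standardised units, or -1.98 without sham replicate 1. In knockout hearts it was at -1.16, -0.88 and -2.10 after CLP, against 1.18, 2.97 and 0.07 after sham, a difference of -2.90 ± 1.18 log units with no overlap, and -2.11 without sham replicate 2.

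**Figure D3:**
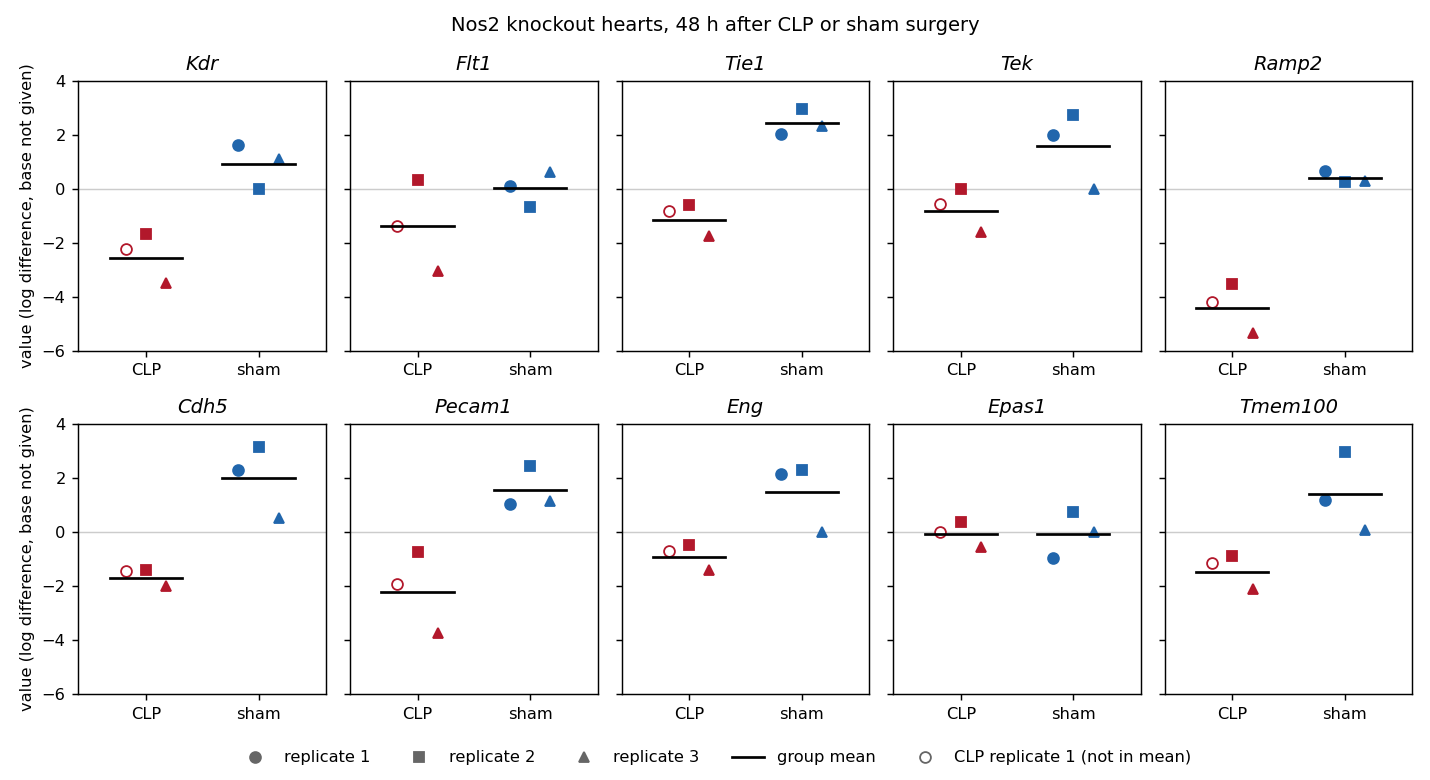
Values of the 10 genes on the 6 knockout arrays, in log units of unstated base, 1 panel per gene, with CLP hearts left of sham hearts and the CLP array that was left out of the differences drawn hollow. For 7 genes the CLP hearts lie below all sham hearts, and Flt1, Tek and Epas1 overlap.

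Over the 10 genes, the wild-type difference between CLP and sham was positive in 4, the receptor tyrosine kinases (50.8% of all genes), and negative in 6 (49.2%), with a median of -0.47 against 0.02 over all genes. All 6 CLP hearts were above the sham hearts in 2 genes (Kdr and Tek), where 5.89% of all genes did the same, and below them in 3 (Ramp2, Epas1 and Tmem100), against 6.11% of all genes. Without wild-type sham replicate 1 the same 2 and 3 genes did not overlap, when the shares of all genes were 9.13% and 10.0%. In knockout hearts the difference was negative in all 10 (48.5% of all genes) and positive in none (51.5%), with Epas1 at nearly 0, and the median was -3.20 against 0.03 over all genes. With CLP replicate 1 included, it was negative in 9 and positive in 1, Epas1 at 0.02. CLP hearts were below all sham hearts in 7 of the 10, against 14.0% of all genes. The same 7 did so without knockout sham replicate 2 (21.2% of all genes), and Tek joined them without sham replicate 3 (19.7%).

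A positive wild-type and a negative knockout difference were found together in 4 of the 10 genes and in 22.1% of all genes, and a negative difference in both tables in 6 of the 10 and in 26.4% of all genes. Of those 6, Eng was nearly 0 in wild type (-0.03 ± 0.60) and Epas1 nearly 0 in knockout (-0.01 ± 0.72). Kdr alone of the 10 had groups without overlap in both directions, higher after CLP in wild type and lower after CLP in knockout, as did 0.605% of all genes. Ramp2 and Tmem100 were lower without overlap in both tables, against 1.39% of all genes. The genes were picked for these directions, and these shares are the background only. The difference between genotypes was not tested, since the tables were normalised separately.

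**Figure D4:**
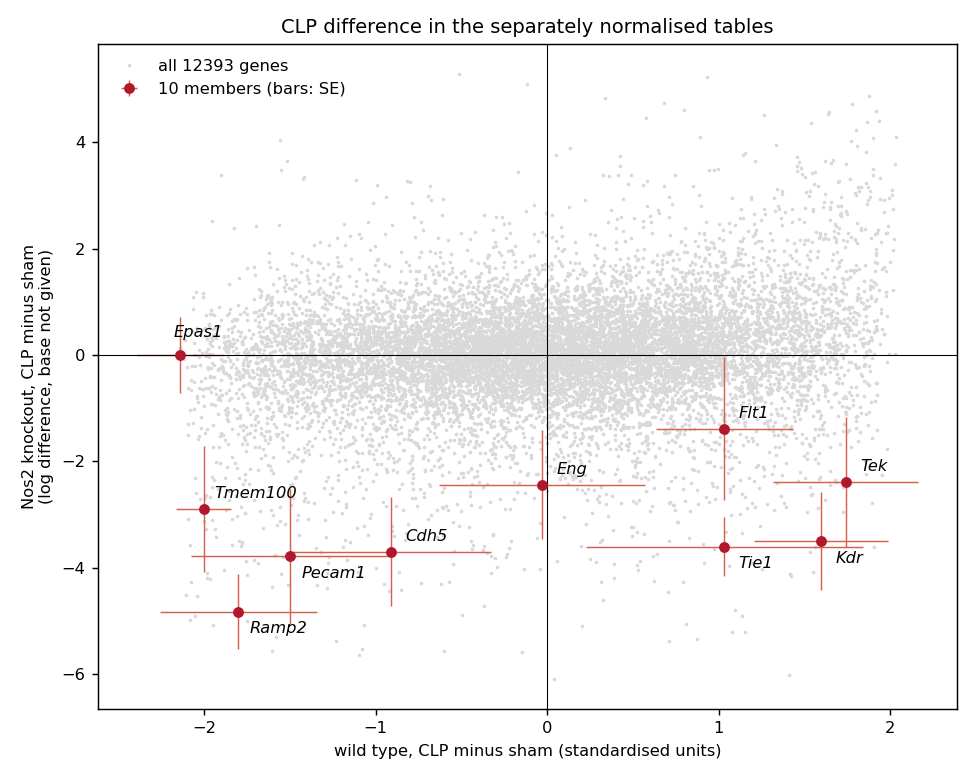
CLP minus sham difference of each of the 10 genes, in red with bars of 1 SE, over all 12393 genes in grey: the x axis is wild type (standardised units, 6 CLP and 3 sham arrays) and the y axis is knockout (log units, 2 CLP and 3 sham arrays). Kdr, Flt1, Tie1 and Tek lie right of 0, and none of the 10 lies above 0 in knockout.

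The difference between Max Dep and Min Dep hearts played no part in choosing the genes and was tested. It asks whether the more and the less depressed septic hearts, as labelled, differed in these genes. None of the 10 passed the threshold of 0.05 after Benjamini-Hochberg adjustment over all genes (limma without moderation, two-sided), and neither did any of the 12393 genes (0.00%). Without adjustment 1216 genes had a p under 0.05, and limma's eBayes called 0 genes as well.

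Tmem100 came nearest. It was higher in all 3 Max Dep hearts than in all 3 Min Dep hearts, by 0.98 standardised units (unadjusted p = 0.0019 and adjusted p = 0.313 in limma). Tek had a difference of 1.12 (adjusted p = 0.521 in limma), with 1 Max Dep heart inside the Min Dep range, and Flt1 a difference of 0.69 without overlap (adjusted p = 0.628 in limma). Kdr pointed the other way, at -0.76 (adjusted p = 0.598 in limma), where Max Dep replicates 1 and 2 were below the Min Dep hearts. Epas1 was the same in both groups to within 0.02 ± 0.29 units. The difference was positive in 8 of the 10 genes, against 46.7% of all genes, with a median of 0.69 against -0.08 over all genes. Groups were apart with Max Dep higher in 2 of the 10 (Flt1 and Tmem100) and in 7.89% of all genes, and with Max Dep lower in none of the 10 and in 7.43% of all genes.

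The differences of Max Dep and of Min Dep from sham share the same 3 sham hearts, so they are given side by side only. They were 1.22 and 1.98 standardised units for Kdr, 1.38 and 0.69 for Flt1, 1.29 and 0.77 for Tie1, and 2.30 and 1.18 for Tek. Among the genes that were lower after CLP, they were -1.34 and -2.26 for Ramp2, -2.13 and -2.15 for Epas1, and -1.51 and -2.49 for Tmem100. Cdh5 had -1.35 and -0.47, Pecam1 -1.15 and -1.84, and Eng 0.56 and -0.62, of opposite sign. The Eng value for Max Dep was -0.04 without Max Dep replicate 3, the Kdr value for Max Dep 0.72 without the same array, and without sham replicate 1 the Tie1 values were 0.35 and -0.16. Max Dep hearts were above all sham hearts in 3 of the 10 genes (13.8% of all genes) and below them in 3 (12.7%). Min Dep hearts were above in 2 (10.9%) and below in 4 (12.4%).

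Likeness among the 10 genes was described by Pearson's r across arrays. Of the 45 pairs, 44 had an r above 0 over the 5 knockout arrays used (median 0.83), and 25 over the 9 wild-type arrays (median 0.12, range -0.83 to 0.89). These values include the difference between CLP and sham, by which the genes were chosen. The choice itself shapes the signs of r, so they are a description only. Taking the lower r of the 2 tables, Tek was most alike to Tie1 (0.71 in wild type and 0.83 in knockout) and Ramp2 to Tmem100 (0.88 and 0.84). Pecam1 was also most alike to Tmem100 (0.83 and 0.92), and Kdr to Tek (0.56 and 0.71). Outside the 10, the profiles closest to their mean were those of Tapbp (r 0.90 over 9 wild-type and 0.98 over 5 knockout arrays), Rgcc (0.88 and 0.92), Abhd4 (0.86 and 0.95), Cavin2 (0.84 and 0.92) and Adss (0.84 and 0.91).

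The other genes of these pathways were read from lists. No gene of the ligand, receptor partner, junction, transcription factor, activation, BMP, Notch or hypoxia lists passed the adjusted threshold between CLP and sham in either table. Over all genes 89 passed in wild type (0.718%), and 0 in knockout, where 1476 had an unadjusted p under 0.05. Of 15 ligands measured, the wild-type difference was positive in 6 and negative in 9. Vegfb, a ligand of Flt1, had -1.86 ± 0.52 standardised units (limma adjusted p = 0.144), and Angpt1, the activating ligand of Tek, -1.57 ± 0.54 (limma adjusted p = 0.204). Vegfc, a lymphatic growth factor, had 1.47 ± 0.63 in wild type and -2.20 ± 0.44 log units in knockout hearts (limma adjusted p = 0.283 and 0.158).

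Of 17 receptor partners, 14 were negative in wild-type hearts and 10 in knockout hearts. The co-receptor Tgfbr3 was at -1.95 ± 0.31 standardised units in wild type (limma adjusted p = 0.0544), while Nrp1, a VEGF co-receptor, was at 1.49 ± 0.47 (limma adjusted p = 0.179). Ptprb, the phosphatase that acts on Tek and VE-cadherin, was at -5.58 ± 1.07 log units in knockout hearts (limma adjusted p = 0.0873) and at -0.15 ± 0.92 standardised units in wild type. All 16 measured junction and adhesion genes were negative in knockout hearts, 9 of them without overlap, against 48.5% and 14.0% of all genes, with a median of -1.28 against 0.03 over all genes. In wild type 11 of the 16 were negative and 2 were lower without overlap, against 49.2% and 6.11% of all genes. Those were the adhesion molecules Mcam (CD146), at -1.89 ± 0.43 standardised units, and Icam2, at -1.84 ± 0.49 (limma adjusted p = 0.0998 and 0.132).

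Of 17 endothelial transcription factors measured, 11 were positive in wild type, against 50.8% of all genes, with a median of 0.39 against 0.02 over all genes. In knockout 16 were negative and 10 of them without overlap, against 48.5% and 14.0% of all genes, with a median of -2.13 against 0.03. Sox7 was negative in both, at -2.08 ± 0.33 standardised units and -3.56 ± 0.94 log units (limma adjusted p = 0.0544 and 0.14). Gata2 was at 1.08 standardised units in wild type and -2.13 ± 0.39 log units in knockout hearts (limma adjusted p = 0.157 in knockout). The Notch list, which sets arterial identity, was negative in 6 of 9 genes in wild type and in 8 of 9 in knockout, with the ligand Dll4 at -2.26 ± 0.56 log units and the target Hes1 at -4.44 ± 1.72 (limma adjusted p = 0.184 and 0.226).

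Targets of BMP and ALK1, the pathway of Eng and Tmem100, had mixed signs: 6 of 10 were positive in wild type and 4 in knockout. Id1 and Id3, direct targets, were at 1.15 ± 0.45 and 1.21 ± 0.67 standardised units in wild type (limma adjusted p = 0.255 and 0.401). In knockout hearts they were at -5.21 ± 1.93 and -2.86 ± 0.83 log units (limma adjusted p = 0.207 and 0.182). Of 16 hypoxia-inducible factors and targets, 9 were negative in each table. Slc2a1, the glucose transporter GLUT1, was at 2.65 ± 0.43 log units in knockout hearts (limma adjusted p = 0.11), and Pgk1, a glycolytic enzyme, at -1.85 ± 0.29 standardised units in wild type (limma adjusted p = 0.0543).

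Of 21 other endothelial identity genes, 12 were negative in wild type (49.2% of all genes) and 13 in knockout (48.5%). Their medians were -0.32 and -1.07. In knockout 9 were lower without overlap, against 14.0% of all genes, and 4 were higher. Rasip1 was lower without overlap in both tables. Its differences were -2.00 ± 0.35 standardised units and -2.70 ± 0.62 log units (limma adjusted p = 0.0642 and 0.143). In wild-type hearts 1 of the 21 rose past the threshold between CLP and sham, against 0.339% of all genes in that direction. Stab1, a scavenger receptor of sinusoidal endothelium that macrophages also carry, rose. It was at 0.64, 0.94 and 1.51 in Max Dep hearts and 0.21, 0.76 and -0.07 in Min Dep hearts, against -1.57, -1.13 and -1.14 in sham hearts, a difference of 1.95 ± 0.27 standardised units (limma adjusted p = 0.0498). No gene passed in this comparison with eBayes or without wild-type sham replicate 1. In knockout hearts Stab1 was at 1.23, 1.96 and 1.41 after CLP, against 0.02, -0.99 and -0.35 after sham (limma adjusted p = 0.165). Fabp4, a fatty acid carrier on the identity list, was at -5.56 ± 1.16 log units in knockout hearts and -0.60 ± 0.66 standardised units in wild type (limma adjusted p = 0.0924 and 0.693). The cell type that carried it in these hearts was not tested. Of 11 activation genes, 7 were positive in wild type and 8 in knockout, with medians of 0.17 and 0.33.

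Without wild-type sham replicate 1, negative wild-type differences numbered 11 of 15 ligands, 14 of 17 receptor partners, 14 of 16 junction genes, 6 of 17 transcription factors and 13 of 21 identity genes. They numbered 4 of 11 activation genes, 4 of 10 BMP and ALK1 targets, 6 of 9 Notch genes and 10 of 16 hypoxia genes. Ptprb was then at -0.77, Fabp4 at -1.01, Id1 at 0.73 and Id3 at 0.53 standardised units, and Stab1 at 1.81. Without knockout sham replicate 2, negative knockout differences numbered 11 of 15 ligands, 13 of 17 receptor partners, 15 of 16 junction genes, 16 of 17 transcription factors and 14 of 21 identity genes. They numbered 1 of 11 activation genes, 6 of 10 BMP and ALK1 targets, 8 of 9 Notch genes and 9 of 16 hypoxia genes.

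Markers of other cell types differed in the same contrast. All 11 macrophage markers were positive in wild type (50.8% of all genes), with a median of 1.80. Past the threshold were 2 of them, against 0.339% of all genes in that direction. Tyrobp and Fcer1g rose by 2.01 ± 0.19 and 2.03 ± 0.22 standardised units (limma adjusted p = 0.029 and 0.0307). The array means of the 11 macrophage markers were 0.34 to 1.16 in Max Dep hearts and -0.03 to 0.59 in Min Dep hearts, against -1.38 to -0.64 in wild-type sham hearts. In knockout hearts 10 of 11 were positive, with array means of 1.46 to 2.46 after CLP against -0.72 to 0.09 after sham. Of 9 neutrophil markers, 7 were positive in wild type and 8 in knockout. In wild type S100a8 and S100a9 rose past the threshold, against the same 0.339% of all genes. They rose by 1.93 ± 0.24 and 1.92 ± 0.26 standardised units (limma adjusted p = 0.0395 and 0.0498). None of these macrophage and neutrophil markers passed with eBayes or without wild-type sham replicate 1.

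Mural and stromal markers were mostly negative, and none of them passed the threshold in either table. All 10 smooth muscle and pericyte markers were negative in both tables, with medians of -1.55 in wild type and -2.51 in knockout, and array means of -1.39 to -1.01 after knockout CLP against 0.69 to 1.24 after knockout sham. All 10 fibroblast markers were negative in wild type (median -1.53), and 7 of 10 in knockout (median -1.20), where their array means overlapped, at -1.33 to 0.19 after CLP against 0.18 to 0.75 after sham. Cardiomyocyte markers had medians of -0.16 in wild type and -0.30 in knockout, and the 3 erythroid markers measured -1.30 and -0.20. Values are centred, so none can be read as absent. Array means of the 10 endothelial genes were -0.29 to 0.73 in Max Dep hearts and -0.41 to -0.17 in Min Dep hearts, against -0.26 to 0.55 in wild-type sham hearts, and they overlapped. In knockout hearts they were -2.50 to -0.86 after CLP against 0.61 to 1.69 after sham, with no overlap. Without wild-type sham replicate 1 the wild-type median was 1.73 for macrophage, 1.24 for neutrophil, -1.62 for smooth muscle and pericyte, and -1.50 for fibroblast markers. Without knockout sham replicate 2 the knockout median of the same lists was 3.22, 2.28, -2.41 and -0.996. The part of cell makeup in the endothelial values was not tested.

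**Figure D5:**
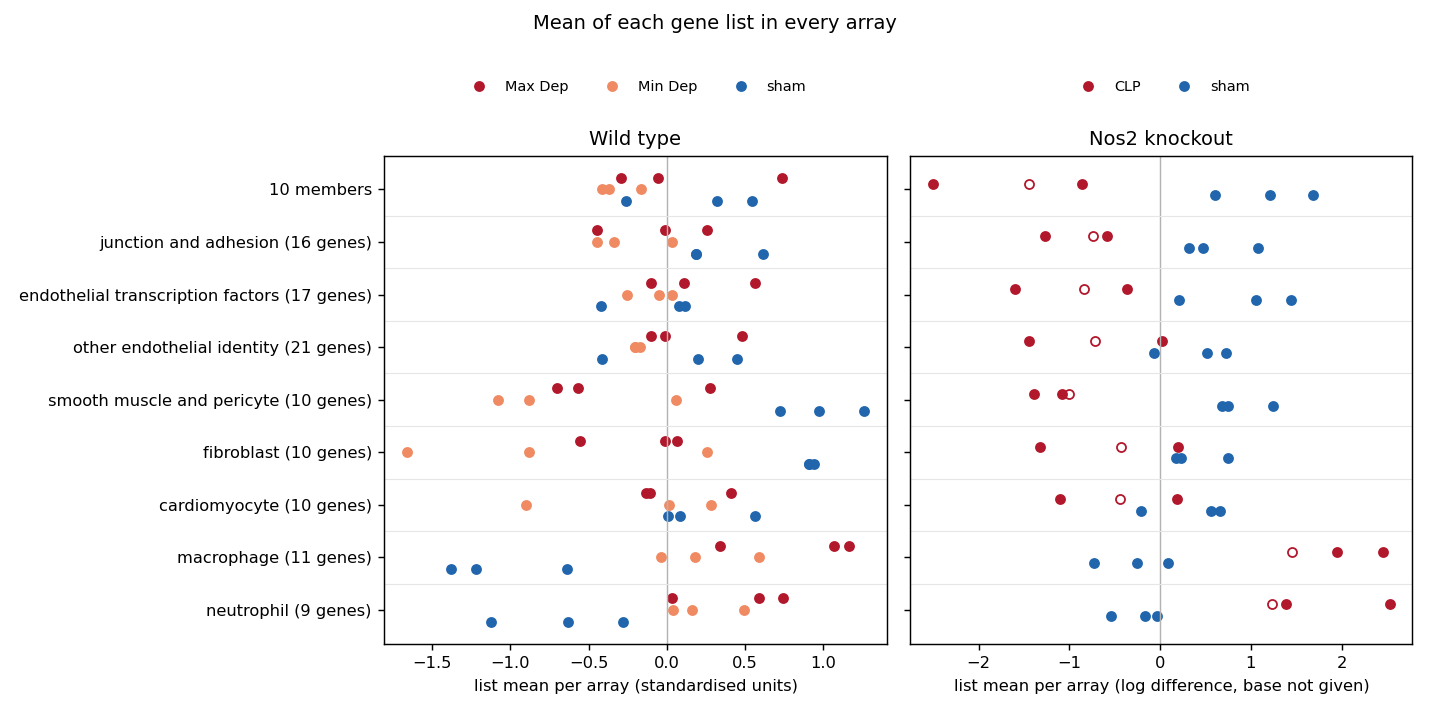
Mean of the 10 endothelial genes, of 3 other endothelial lists and of the markers of 5 other cell types on every array, wild-type arrays in standardised units and knockout arrays in log units, 1 point per heart. The hollow knockout CLP point is the array that was left out of the differences. Macrophage markers lie higher after CLP in both tables, and smooth muscle and pericyte markers lie lower.

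The 5′ minus 3′ value of the arrays' control probe sets, a rough sign of RNA quality, was lower in 5 of the 6 wild-type CLP hearts than in all sham hearts. A lower value means a lower score at the 5′ end relative to the other arrays of the table. Each wild-type probe set was scaled to its own spread, so the value is a difference of scores and not a ratio of signals. The difference between 5′ and 3′ controls was -0.81, 0.53 and -1.85 in Max Dep hearts and 0.07, -0.08 and -0.56 in Min Dep hearts, against 0.55, 0.39 and 1.76 in wild-type sham hearts. With it as a covariate the wild-type CLP difference became 1.14 standardised units for Kdr, 1.54 for Tek and -1.74 for Ramp2, each nearer to 0. It became 1.64 for Flt1, 1.16 for Tie1, -1.51 for Cdh5, -2.34 for Pecam1, -0.99 for Eng, -2.37 for Epas1 and -2.31 for Tmem100, each further from 0. No sign changed in that comparison. For Max Dep against sham, Kdr became 0.67 with the covariate, against 1.22 without it, and Eng changed sign, to -0.59 against 0.56. In knockout hearts it was -1.07, -2.06 and -0.78 after CLP, against -1.97, 0.21 and 0.98 after sham.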

How the data were processed

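Total RNA of 15 whole hearts was hybridised to oligonucleotide arrays. The deposited wild-type values are a standardised score: undoing a linear step per array left each probe set with mean 0 and SD 1 over the 9 arrays. The deposited knockout score has the form of a log difference centred per probe set, base not given. The authors' software: not given in the sources used here. No intensities were used, so no filter on dim probe sets was possible.

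Of 22690 probe sets, 64 controls, 691 with several genes and 1555 with none were left out, and 20380 were averaged into 12393 genes. Probe sets shared by Ramp2 and Vps25 were not used. Groups were compared with limma 3.58.1 in R 4.3.3 over all genes (Benjamini-Hochberg, 0.05): wild type without moderation, all 9 arrays in 1 fit, and knockout with eBayes on 5 arrays, since CLP replicate 1 resembles a mean of the other CLP columns. An SE is the ordinary one of the fit. The fits were also run on simulated data with independent noise and no array that stood apart. That run cannot show how the fits behave on arrays such as these. Likeness is Pearson's r.

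The 10 genes, the lists and the tests were chosen with earlier results of these data known. Beside the 10, the genes eligible for naming were, per list, those past the threshold, up to 4 with the smallest wild-type p and up to 2 with the smallest knockout p. Replicate numbers follow accession order. The labels do not say that the hearts of a group came from separate experiments, so p-values measure only the spread between these samples. Alternatives were the moderation, the probe-set rule, the array scaling, the groups fitted, a control covariate and leaving out each array.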

Additional observations from a re-analysis of the deposited data

Results flagged for a closer look

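Kdr was above sham in every wild-type CLP heart and below sham in every knockout CLP heart. The difference was 1.5982 standardised units in wild type and -3.4985 log units in knockout. The difference between the genotypes was not tested, the tables were normalised separately, and the gene was chosen with these opposite directions known. Among the 6 wild-type CLP hearts no single heart of the 10 genes lay far enough from the rest to be singled out.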

How the results depend on the processing

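Counts of genes past the threshold moved with the settings. For wild-type CLP against sham the count was 89, and it became 0 with eBayes (2653 unadjusted), 513 probe sets with every probe set tested, 179 with the array standardisation undone and 1 with the end bias of the control probe sets as covariate. Leaving out 1 array gave 0 to 186, the highest without Min Dep replicate 2, and every other array left 12 or fewer. For Max Dep against sham it was 56, against 0 with eBayes, 220 probe sets, 33 without shared-sequence probe sets, 7 with only the groups compared, 0 with the covariate, and 0 to 26 with 1 array left out. For Min Dep against sham it was 7, against 0, 112, 18, 1 and 2 in the same order, 27 with the standardisation undone (13 higher and 14 lower, against 2 and 5), and 0 to 68 with 1 array left out. For Max Dep against Min Dep it was 0, against 2 with the standardisation undone and 0 to 1 with 1 array left out. For knockout CLP against sham it was 0, against 295 with all 6 arrays and 0 to 0 with 1 array left out. The cause of these moves was not tested.

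The sign of the wild-type CLP difference changed in 5 of 140 values of the 10 genes, all of Eng, and that of the knockout difference in 6 of 100, 5 of Epas1 and 1 of Flt1. The counts of the 10 genes without overlap when wild-type sham replicate 1, knockout sham replicate 2 or knockout sham replicate 3 is left out, and the list counts without the first and second of these, were chosen after seeing the data. Tie1 for Min Dep against sham became -0.16 without wild-type sham replicate 1. No paired analysis was possible because the labels give no replicate numbers shared between groups. Signal over background was not available.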
